A study of Arabidopsis thaliana with 6 samples.

Results

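The nuclear genes for the photosystem core and for photosynthetic electron transport were examined in 3-day-old *Arabidopsis* seedlings mutant for the transcription factor HY5. The set was given by locus code and holds 35 genes of the 29030 locus codes on the array. It has 12 genes for subunits of photosystem I (*PSA*), 13 for subunits of photosystem II (*PSB*), and 10 for the Rieske protein, plastocyanin, ferredoxin, ferredoxin-NADP reductase and the chloroplast ATP synthase. Genes of the light-harvesting antenna are not in it. The tested plants were *hy5* (SALK_096651), 1 insertion line in the Col background, and they were compared with Col wild type. Seedlings of both genotypes were grown in continuous white light on sucrose-free medium, and their RNA was hybridized to 6 Agilent one-color arrays, 3 of *hy5* and 3 of wild type.

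Photosystem II oxidizes water and passes electrons through the cytochrome b6f complex and plastocyanin to photosystem I, which reduces ferredoxin. Ferredoxin-NADP reductase then forms NADPH, and the proton gradient drives the ATP synthase. The reaction center proteins are encoded in the chloroplast genome, while most peripheral subunits and the soluble carriers are encoded in the nucleus and imported. HY5 is a bZIP factor that promotes photomorphogenesis, the change to the light-grown form in which cotyledons green.

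Each value below is the brightness of a probe divided by the 75th percentile of its array, called the scaled signal. All 35 genes had a probe well above background on all 6 arrays, and no spot was saturated. The 75th percentile itself was an intensity of 981 to 1057 on the *hy5* arrays and 487 to 558 on the wild-type arrays. Without scaling, the probe of each of the 35 genes was brighter on the *hy5* arrays, by 1.05 to 2.50 times, while 9 of 10 spike-in probes were dimmer there and the lowest was at 0.621 of its wild-type brightness. All changes are therefore relative to the other transcripts on the array. No slide and no scan held both genotypes, so their effects and that of genotype cannot be told apart. It is not stated whether replicates were separate plant samples, so p-values measure the spread between these arrays, which may be technical.

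*HY5* itself had a scaled signal of 0.0217, 0.0283 and 0.0169 on the *hy5* arrays and 1.32, 1.38 and 1.24 on the wild-type arrays. The genotypes did not overlap, and the log2 difference was -5.91 (standard error 0.178, limma adjusted p = 7.57e-06). Green-tissue transcripts were present in both genotypes. The scaled signals of 5 marker genes for green tissue summed to 1073 to 1221 in *hy5* and 1403 to 1668 in wild type, and 4 of the 5 fell. Those of 6 root markers summed to 40.6 to 47.3 in *hy5* and 17.7 to 21.3 in wild type, with 3 higher and 1 lower. The aquaporin gene *TIP2;3*, with a log2 difference of 2.85, had a mean of 28.4 in *hy5* and 3.97 in wild type. It made up most of the *hy5* sum, and the rise of the sum rests on it. Those of 8 seed storage and maturation genes summed to 7.28 to 13.7 in *hy5* and 0.751 to 1.73 in wild type, with 7 higher. *SESA1*, 1 of these 7, was well above background on 3 *hy5* and 0 wild-type arrays, so it entered the test only through *hy5*. By the threshold given below, 26.6% of all genes tested were lower and 26.3% higher. The part of green, root and seed tissue in the results below was not tested. In bulk RNA of seedlings, fewer green cells and less RNA per cell cannot be told apart.

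The photosystem and electron transport genes were lower in *hy5* as a set of small changes, of which 9 of the 10 with the brightest probes were not past the threshold under quantile normalization. Genotypes were compared with limma over 21590 genes, and an adjusted p under 0.05 was the threshold. Of the 35 genes, 26 fell, 1 rose (*PSAE-2*) and 8 did not pass. Over all genes tested, 26.6% were lower and 26.3% were higher by the same rule. The 26 genes that fell were at 55.0% to 78.9% of the wild-type level, and none of the 35 changed as much as 2-fold, a limit passed by 4.84% of all genes downward and 6.55% upward. The median over the 35 genes was -0.44 on the log2 scale, and that of all genes tested was -0.0044. For 27 of the 35 genes every *hy5* array was below every wild-type array, for 1 gene every *hy5* array was above, and for 7 genes the genotypes overlapped. Over all genes tested, 31.7% lay wholly below and 30.8% wholly above.

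**Figure D1:**
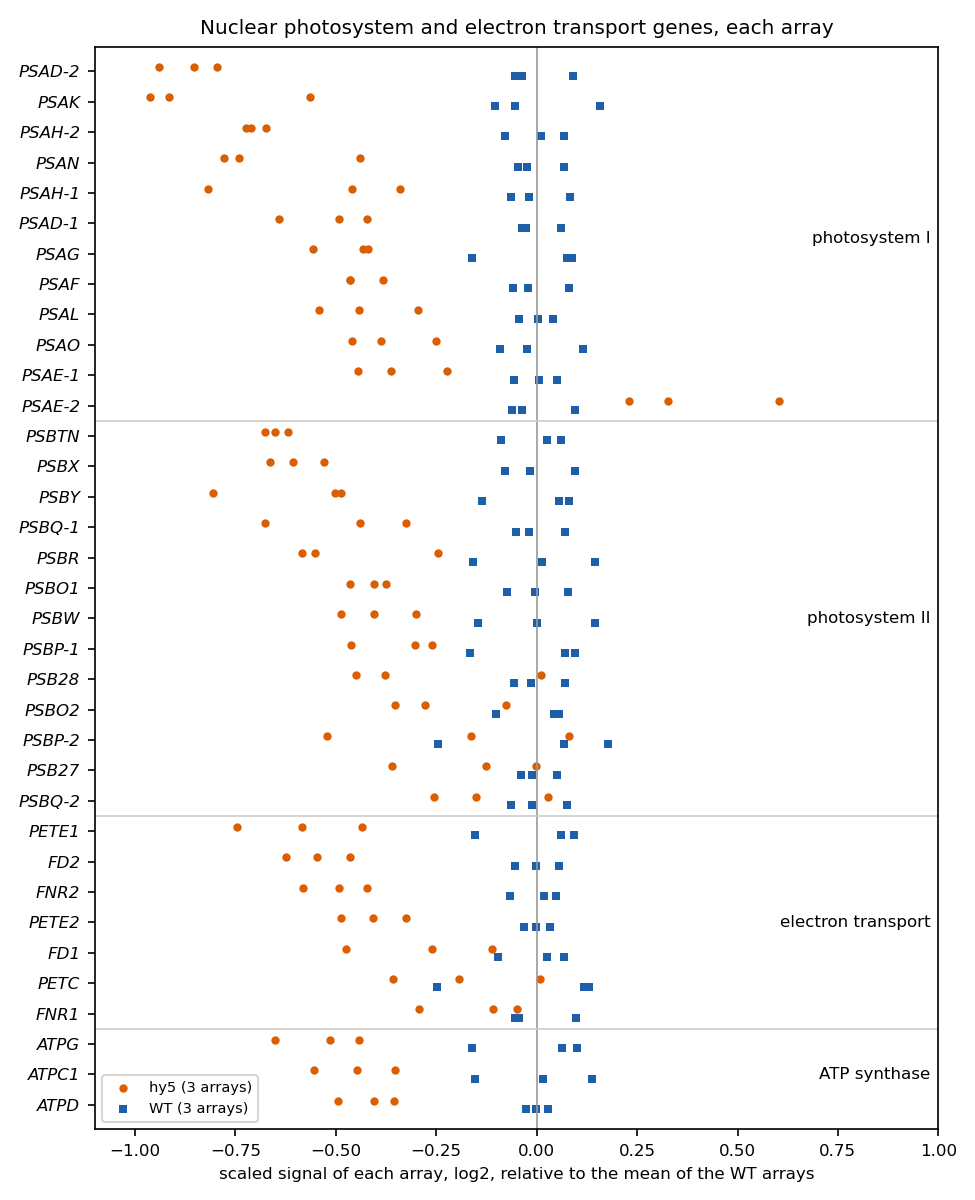
Scaled signal of the 35 genes on each array, on a log2 scale relative to the mean of the 3 WT arrays, with *hy5* arrays as circles and WT arrays as squares, grouped by complex. In 27 genes all *hy5* arrays lie left of all WT arrays, and *PSAE-2* is the only gene with all *hy5* arrays to the right. Values are those of the 75th percentile scaling, and 6 genes change sign under quantile normalization.

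The size of this fall depended on how the arrays were brought to a common scale. Cyclic loess and median scaling left 28 and 26 genes lower. Quantile normalization, which gives every array the same set of values, left 16 lower and 0 higher with a median of -0.22. Under it 27.6% of all genes were lower. The difference lay in the brightest probes. For the 10 genes with a mean scaled signal of at least 200, the median log2 difference was -0.43 with the 75th percentile and 0.0071 with quantile normalization, and 1 of 10 remained lower. For the other 25 genes it was -0.45 and -0.31, with 16 and 15 genes lower. *PSBO1*, *PSAF*, *PSBW*, *PETE2* and *PSBP-1* fell with the 75th percentile and had values of 0.02 to 0.09 under quantile normalization, none of them past the threshold. Both signal limits used here, 200 and 8, were chosen after the data were seen. Among 1727 other genes with a mean scaled signal of at least 8, a level that 34 of the 35 genes reach, the median log2 difference was 0.039, and 24.6% were lower and 28.3% higher. These genes are not matched in brightness to the 10 genes at 200 or more, so they do not show how other probes as bright as those changed.

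**Figure D2:**
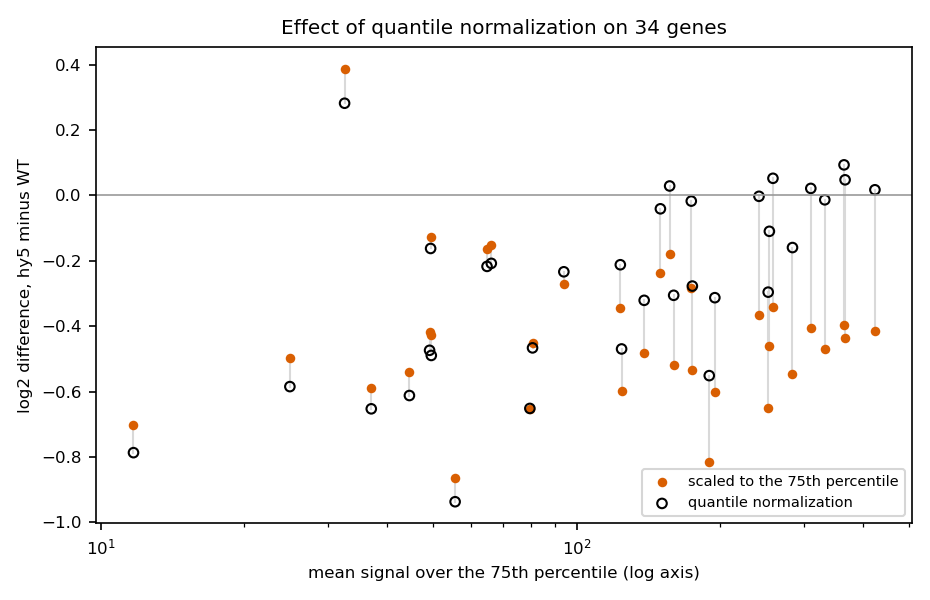
Log2 difference between *hy5* and WT of 34 genes against the mean scaled signal of their probe (log axis), with the 75th percentile scaling (filled) and with quantile normalization (open), joined by a line for each gene. *PSBP-2*, whose scaled signal is under 1, is not drawn. At a scaled signal of at least 200 the open points lie between -0.30 and 0.093, and the lines between the settings are longer than at low signal.

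The largest falls of the set, those of *PSAD-2*, *PSAK* and *PSAH-2*, were in photosystem I. Of its 12 nuclear genes, 11 fell and 1 rose, with a median log2 difference of -0.49. The shares over all genes tested were 26.6% lower and 26.3% higher. PsaD and PsaE form the stromal side on which ferredoxin docks, and each is encoded by a pair of genes. *PSAD-2* (AT1G03130) had scaled signals of 37.3, 39.6 and 41.3 in *hy5* and 69.0, 69.7 and 76.2 in wild type. All *hy5* arrays were well below all wild-type arrays, and the gene fell by 0.86 on the log2 scale (standard error 0.0911, limma adjusted p = 0.000287). *PSAD-1* (AT4G02770) had 121, 134 and 140 in *hy5* and 183, 185 and 196 in wild type. It was also lower on every *hy5* array, at 69.8% of wild type.

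The *PSAE* genes moved in opposite directions. *PSAE-1* (AT4G28750) had 107, 118 and 101 in *hy5* and 139, 133 and 143 in wild type, with no overlap. Its log2 difference was -0.34 (limma adjusted p = 0.018). *PSAE-2* (AT2G20260) had 35.2, 42.7 and 32.9 in *hy5* and 30.0, 26.9 and 27.4 in wild type. The *hy5* arrays were all higher, and replicate 2 was the highest. The log2 difference of *PSAE-2* was 0.39 (standard error 0.119, limma adjusted p = 0.0275). Both calls were near the threshold. That of *PSAE-2* was lost without *hy5* replicate 2 (adjusted p = 0.0635), without wild-type replicate 2 (adjusted p = 0.0825) and without wild-type replicate 3 (adjusted p = 0.0718), with limma in each case. Under quantile normalization *PSAE-2* was at 0.28 (limma adjusted p = 0.0522). The call of *PSAE-1* was lost without *hy5* replicate 3, wild-type replicate 1 or wild-type replicate 3 (limma adjusted p of 0.055 to 0.0635), under quantile normalization (-0.21, adjusted p = 0.0828) and with normexp background correction (-0.15, adjusted p = 0.121).

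On the lumenal side, PsaF and PsaN take part in the binding of plastocyanin. *PSAN* (AT5G64040) had 56.7, 71.6 and 58.1 in *hy5* and 102, 95.7 and 94.2 in wild type. The highest *hy5* array, replicate 2, was still below the lowest wild-type array, and the log2 difference was -0.65 (standard error 0.114, limma adjusted p = 0.00251). *PSAF* (AT1G31330) had 305, 323 and 305 in *hy5* and 445, 404 and 415 in wild type, a log2 difference of -0.44 with the 75th percentile and 0.048 with quantile normalization.

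PsaK and PsaG flank the photosystem I core beside its antenna, and PsaH, PsaL and PsaO lie on the opposite side, where mobile antenna can dock. *PSAK* (AT1G30380) had 128, 163 and 124 in *hy5* and 269, 232 and 224 in wild type. Replicate 2 was the highest of the *hy5* arrays and still below the wild-type range. It fell by 0.81 on the log2 scale (standard error 0.134, limma adjusted p = 0.00195), at 56.9% of wild type. *PSAH-2* (AT1G52230) had 9.10, 8.85 and 8.78 in *hy5* and 15.2, 13.7 and 14.6 in wild type. Its replicates were close together, and the log2 difference was -0.70 (standard error 0.0855, limma adjusted p = 0.000517). *PSAH-1*, *PSAL*, *PSAG* and *PSAO* fell less, with log2 differences of -0.54, -0.43, -0.47 and -0.37. Under quantile normalization *PSAG* and *PSAO* were at -0.014 and -0.0029, and *PSAO* was not past the threshold without *hy5* replicate 3 (limma adjusted p = 0.0558) or wild-type replicate 1 (limma adjusted p = 0.0697).

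In photosystem II, 8 of 13 genes fell and 5 did not pass, with a median log2 difference of -0.40. The share lower over all genes tested was 26.6%. Under quantile normalization only *PSBTN*, *PSBX*, *PSBY* and *PSBQ-1* of the 13 were lower, beside 27.6% of all genes. The lowest log2 differences were those of *PSBTN*, *PSBX* and *PSBY*. *PSBTN* (AT3G21055), for a small lumenal subunit, had 196, 201 and 193 in *hy5* and 322, 290 and 314 in wild type. The *hy5* arrays agreed closely and lay far below wild type, and the gene fell by 0.65 on the log2 scale (standard error 0.0864, limma adjusted p = 0.000764). *PSBX* (AT2G06520) had 148, 163 and 154 in *hy5* and 251, 222 and 232 in wild type, and *PSBY* (AT1G67740) had 85.3, 106 and 105 in *hy5* and 155, 136 and 158 in wild type. Both were at 66.0% of wild type without overlap. *PSBW* (AT2G30570) had a log2 difference of -0.40 at its brightest probe, and this call rests on that probe alone. Its other 3 probes had -0.07, -0.05 and -0.01, and under quantile normalization it was at 0.093. Without *hy5* replicate 3 or wild-type replicate 1 its limma adjusted p was 0.0598 and 0.0619.

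The extrinsic proteins PsbO, PsbP and PsbQ shield the manganese cluster that oxidizes water, and PsbR helps to hold them. *PSBO1* (AT5G66570) had 350, 373 and 365 in *hy5* and 510, 459 and 482 in wild type. It fell by 0.41 on the log2 scale (limma adjusted p = 0.00582) with the 75th percentile and was at 0.017 with quantile normalization. *PSBO2* (AT3G50820) had 127, 153 and 133 in *hy5* and 168, 151 and 167 in wild type. Its replicates overlapped, and the log2 difference of -0.24 was not past the threshold (95% interval -0.48 to 0.01, limma adjusted p = 0.0954).

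*PSBQ-1* (AT4G21280) had 101, 128 and 119 in *hy5* and 169, 159 and 155 in wild type, a fall of -0.48 (limma adjusted p = 0.00902). *PSBQ-2* (AT4G05180) had 46.3, 52.4 and 43.0 in *hy5* and 54.1, 49.1 and 51.0 in wild type. The genotypes of *PSBQ-2* overlapped, with a log2 difference of -0.13 (95% interval -0.37 to 0.12, limma adjusted p = 0.336). *PSBP-1* (AT1G06680) and *PSBR* (AT1G79040) fell by 0.34 and 0.46 on the log2 scale. Their calls were lost when single arrays were left out, for *PSBP-1* with each of *hy5* replicates 1 and 3 and wild-type replicates 1 and 3 and for *PSBR* with each of *hy5* replicates 1 and 3 and wild-type replicates 1 and 2 (limma adjusted p of 0.0509 to 0.0988). Under quantile normalization *PSBP-1* was at 0.052 and *PSBR* at -0.11 (limma adjusted p = 0.488). *PSBP-2* (AT2G30790) had 0.0316, 0.0374 and 0.0246 in *hy5* and 0.0400, 0.0298 and 0.0371 in wild type, with wide overlap and a log2 difference of -0.20 (95% interval -0.61 to 0.21). Its probe was dim, with a mean intensity of 24.3. With normexp background correction *PSBP-2* was at -0.66 and passed the threshold (limma adjusted p = 3.18e-05), a setting in which 48.6% of all genes were lower.

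Psb27 and Psb28 bind photosystem II while it is assembled or repaired and are absent from the working complex. Neither gene passed the threshold. *PSB27* (AT1G03600) had 53.1, 68.2 and 62.5 in *hy5* and 66.5, 67.7 and 70.7 in wild type. *PSB28* (AT4G28660) had 74.9, 103 and 78.7 in *hy5* and 101, 107 and 98.4 in wild type. In both genes *hy5* replicate 2 lay within the wild-type range while the other *hy5* arrays were below it. The log2 differences were -0.16 (95% interval -0.42 to 0.10) and -0.27 (95% interval -0.58 to 0.04). Without *hy5* replicate 2, *PSB28* was at -0.41 and passed the threshold (limma adjusted p = 0.0153).

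Among the electron carriers, 4 of 7 genes fell and 3 did not pass, beside 26.6% lower over all genes tested. Under quantile normalization only *PETE1* and *FNR2* of the 7 were lower, beside 27.6% of all genes. The Rieske protein is the iron-sulfur subunit of the cytochrome b6f complex. Its gene *PETC* (AT4G03280) had 129, 166 and 145 in *hy5* and 139, 180 and 181 in wild type. The genotypes overlapped, and all 3 of its probes had log2 differences of -0.18 to -0.15 (95% interval of the brightest -0.51 to 0.15), with 0.029 under quantile normalization. Plastocyanin, the copper protein of the lumen, was lower from both genes. *PETE1* (AT1G76100) had 26.4, 32.8 and 29.5 in *hy5* and 47.3, 39.8 and 46.2 in wild type, at 66.5% of wild type. *PETE2* (AT1G20340), which gives the major form, had 266, 282 and 252 in *hy5* and 353, 346 and 362 in wild type, at 75.4% of wild type with the 75th percentile and at a log2 difference of 0.021 with quantile normalization.

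Ferredoxin and its reductase showed 1 gene of each pair past the threshold. *FD2* (AT1G60950), the major leaf ferredoxin gene, had 218, 244 and 231 in *hy5* and 350, 325 and 336 in wild type. It was lower on every *hy5* array and fell by 0.55 on the log2 scale (standard error 0.0888, limma adjusted p = 0.00186), and all 7 of its probes were lower. Under quantile normalization it was at -0.16 and did not pass (adjusted p = 0.147). *FD1* (AT1G10960) had 137, 176 and 159 in *hy5* and 194, 178 and 200 in wild type. The *hy5* arrays were again all lower, with replicate 2 just under the lowest wild-type array, and the difference of -0.28 did not pass (limma adjusted p = 0.0743). *FD1* passed with cyclic loess (limma adjusted p = 0.0122) and with a trended robust prior in limma (adjusted p = 0.0426). *FNR2* (AT1G20020) had 20.8, 21.8 and 19.5 in *hy5* and 30.2, 29.6 and 27.9 in wild type, at 70.8% of wild type. *FNR1* (AT5G66190) had 56.7, 67.2 and 64.4 in *hy5* and 67.4, 67.0 and 74.3 in wild type, with overlap and a log2 difference of -0.15 (95% interval -0.39 to 0.09). With the mean of its probes *FNR1* was at -0.32 and passed (limma adjusted p = 0.0427).

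The 3 ATP synthase genes of the set fell together, beside 26.6% lower over all genes tested. ATPC1 is the γ subunit of the rotor, ATPD the δ subunit, and ATPG the b' subunit of the stalk. *ATPD* (AT4G09650) had 39.8, 43.9 and 42.4 in *hy5* and 55.0, 56.0 and 57.2 in wild type. *ATPC1* (AT4G04640) had 68.2, 63.3 and 72.9 in *hy5* and 102, 94.1 and 83.6 in wild type. *ATPG* (AT4G32260) had 132, 152 and 145 in *hy5* and 221, 185 and 216 in wild type. None of the 3 overlapped, and their log2 differences of -0.42, -0.45 and -0.54 had limma adjusted p of 0.00496 to 0.0103. At its dimmer probe *ATPC1* was at -0.15 and did not pass (limma adjusted p = 0.27).

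The 2 genes of a pair were then compared directly, by the difference of their log2 signals within each array. There were 9 such pairs. In 6 of them the within-array difference did not overlap between genotypes, and each had an exact two-sided permutation p = 0.1, the smallest that 3 against 3 arrays allow, or 0.15 after adjustment over the 9 pairs. This exact test therefore could not reach 0.05. The change in log2 of the first gene over the second, *hy5* minus wild type, was -0.73 for *PSAE*, -0.35 for *PSBQ* and -0.18 for *PSBO*, so that the first gene was the lower of the pair relative to wild type. It was 0.34 for *PSAD*, 0.35 for *FNR* and 0.26 for *FD*, where the second gene was. These directions did not hold for every pair. *PSBO* was at 0.058 under quantile normalization and 0.012 with the dimmest probes, and *FNR* at -0.033 with the mean of probes and -0.29 with the dimmest. For *PSBQ* the size was less under quantile normalization, at -0.16. In the pairs of *PSAH*, *PSBP* and *PETE* the genotypes overlapped. Probe sequences were not used here, so whether near-identical genes share probe signal was not tested.

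**Figure D3:**
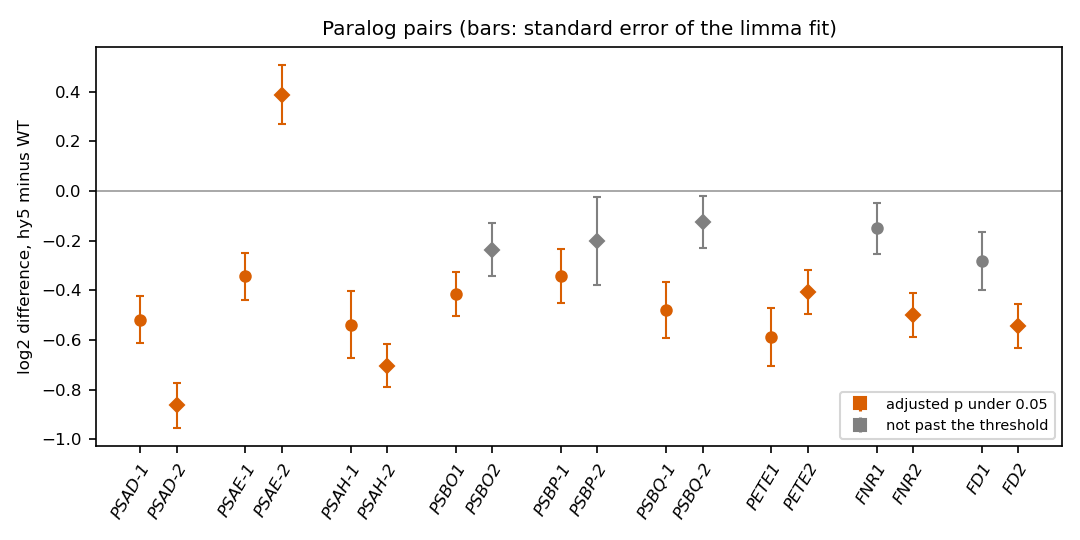
Log2 difference between *hy5* and WT of both genes in 9 paralog pairs, with circles for the first gene, diamonds for the second, and bars for the standard error of the limma fit over 3 arrays of each genotype. Orange marks an adjusted p under 0.05. *PSAE-2* is the only gene above 0, and *PSAD-2* is the lowest. Values are those of the 75th percentile scaling, and *PSBO1*, *PSBP-1* and *PETE2* lie just above 0 under quantile normalization.

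Most genes were measured with several probes, and these agreed in direction. Of the 87 tested probes of the 35 genes, 86 had a negative log2 difference, 58 were past the threshold as lower, and 1, the single probe of *PSAE-2*, as higher. The shares over all tested probes are not given here. With the brightest probe of each gene, 50.3% of all genes tested had a negative log2 difference, 26.6% were lower and 26.3% higher. Among the 23 genes with several probes, all probes were lower in 9, at least 1 probe was lower in 20, and no probe was lower in 3 (*PETC*, *PSBO2* and *PSBQ-2*). The size differed more between probes. The probes of *PSAD-2* had log2 differences between -1.09 and -0.80, those of *PSAD-1* between -0.81 and -0.52, and those of *PSAG* between -0.82 and -0.47. In these genes the brightest probe did not show the largest fall. For *FNR1* the brightest probe had -0.15 while its other 4 had -0.42 to -0.29 (limma adjusted p of 0.0122 to 0.104). For *FNR2* and *ATPC1* the order was the reverse, with -0.50 and -0.45 at the brightest probe and -0.07 and -0.15 at the other. With the dimmest tested probe of every gene, a setting chosen after the data were seen, 17 of the 35 genes were lower, 1 of them (*PSAD-2*) by at least 2-fold, and the median was -0.39. In that setting 23.5% of all genes were lower.

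**Figure D4:**
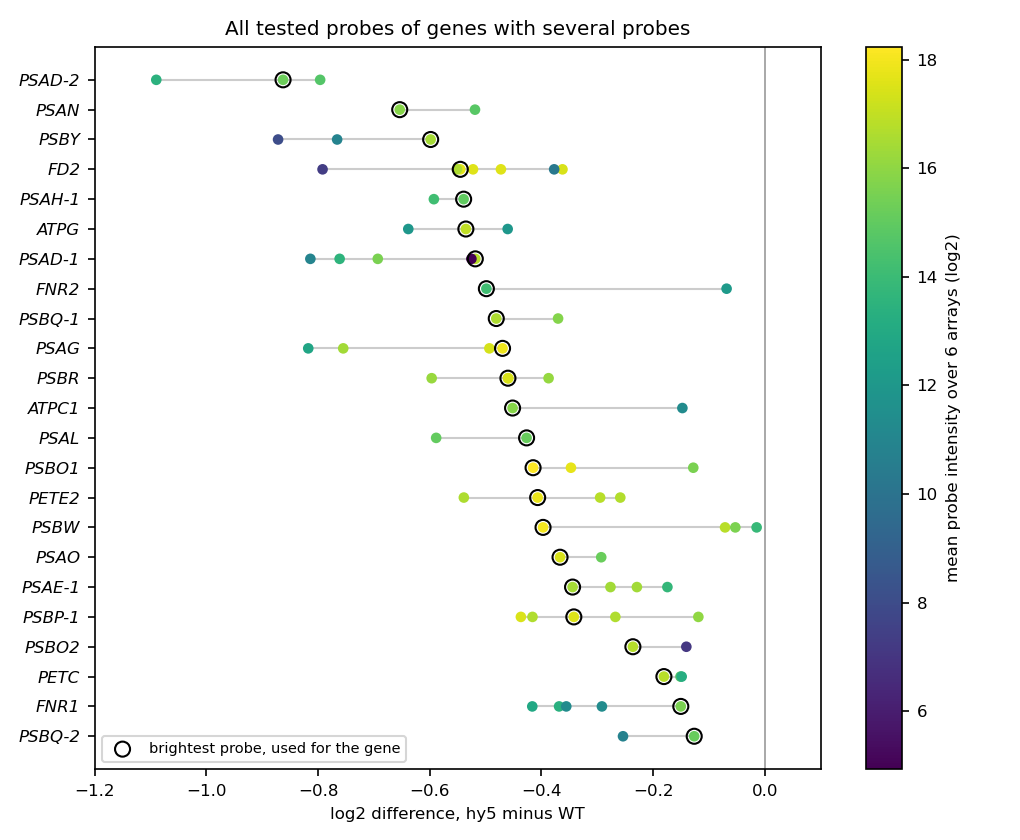
Log2 difference between *hy5* and WT of every tested probe of the 23 genes with several probes, colored by mean probe intensity over the 6 arrays (log2). Rings mark the brightest probe, which stands for the gene. No probe lies above 0, and the ring of *PSBW* at -0.40 stands apart from its other probes, which are near 0.

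Related genes of the same membrane were taken from lists set by function. Of 21 antenna genes, 18 fell and none rose, with a median log2 difference of -0.46. Under quantile normalization 5 of the 21 were lower, beside 27.6% of all genes. By the methods' t-test after adjustment 11 were, beside 15.1% of all genes. With single arrays left out, 14 to 18 were lower, beside 22.0% to 25.5% of all genes. They ranged from *LHCB2.3* (AT3G27690) at -1.03, the one antenna gene past 2-fold (-0.97 under quantile normalization and -0.92 without *hy5* replicate 1), to *LHCB2.1* (AT2G05100) at -0.05, whose dimmer probe gave -0.69 (limma adjusted p = 0.00203). Of 32 locus codes of the chloroplast genome for subunits of the same complexes, 18 had a probe. All 18 fell, 15 of them at least 2-fold, with log2 differences of -2.02 to -0.88 and a median of -1.36. Over all genes tested, 26.6% were lower, and 4.84% by at least 2-fold. Whether the labeling recovers chloroplast transcripts as it does nuclear ones was not tested. None of these codes is in the authors' normalized table, and the gene table pairs none with a name. Whether the lists differ from one another was not tested.

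A further list holds accessory and assembly proteins of the thylakoid and *PETM*, for a small subunit of the cytochrome b6f complex. Of its 19 genes, 12 fell, 3 of them at least 2-fold, and 7 did not pass, with a median log2 difference of -0.44. By the same rule 26.6% of all genes tested were lower, and 4.84% at least 2-fold. *PGRL1A* (AT4G22890), for a thylakoid protein of cyclic electron flow around photosystem I, had 9.40, 9.19 and 8.59 in *hy5* and 19.1, 18.9 and 20.0 in wild type. Its arrays were tightly grouped and apart, and it fell by 1.09 on the log2 scale (standard error 0.0861, limma adjusted p = 8.78e-05). *PGRL1B* (AT4G11960) was at -1.08 at its brightest probe (limma adjusted p = 0.00265) and at -0.42 at its dimmest (adjusted p = 0.127). *HCF136* (AT5G23120), a lumenal factor for photosystem II assembly, had 9.52, 10.6 and 10.5 in *hy5* and 20.5, 19.8 and 21.3 in wild type, at 49.7% of wild type. The 2-fold limit was narrowly passed. *PGRL1A* was at -0.78 and *PGRL1B* at -0.97 with normexp, and at -0.95 and -0.84 with the mean of probes, while *HCF136* was at -0.95 with normexp. Without *hy5* replicate 2 or wild-type replicate 2 *PGRL1B* was at -0.91 and -0.99, and without *hy5* replicate 1 or wild-type replicate 3 *HCF136* was at -0.96 and -0.98. *PGR5* (AT2G05620), the partner of PGRL1, was at 0.02 (95% interval -0.29 to 0.32). The highest value of the list was that of *PPD1* (AT4G15510), 0.28, which did not pass (limma adjusted p = 0.0635).

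Relatives of the electron carriers and of the ATP synthase γ subunit that are not in the set were also measured. Of 7 such genes, 3 rose, 1 fell (*FDC1*, limma adjusted p = 0.0395) and 3 did not pass, beside 26.3% higher and 26.6% lower over all genes tested. The rises were not past the threshold by the methods' t-test after adjustment, which called 0 of the 7. The fall was lost with median scaling, without a filter, with the replicate block, by that adjusted test and without each array except *hy5* replicate 2. *RFNR1* (AT4G05390), a root-type ferredoxin-NADP reductase gene, had 2.12, 1.71 and 1.97 in *hy5* and 1.14, 1.05 and 1.06 in wild type. Every *hy5* array was higher, by 0.83 on the log2 scale (standard error 0.107, limma adjusted p = 0.000672). *RFNR2* (AT1G30510) had 1.13, 0.935 and 0.932 in *hy5* and 0.651, 0.764 and 0.613 in wild type, and *ATPC2* (AT1G15700), a second γ subunit gene, had 0.555, 0.715 and 0.637 in *hy5* and 0.388, 0.465 and 0.485 in wild type. Their log2 differences were 0.56 and 0.51 (limma adjusted p of 0.00714 and 0.0137). *FD3* (AT2G27510), the ferredoxin gene of roots, was at 0.08 (95% interval -0.15 to 0.30). *CYTC6A* (AT5G45040), for a cytochrome c6-like protein, had the lowest value of the list, -0.36, and did not pass (limma adjusted p = 0.0637). Of the 6 root markers given above, 3 were higher in *hy5* and 1 was lower, and their part in these rises was not tested.

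**Figure D5:**
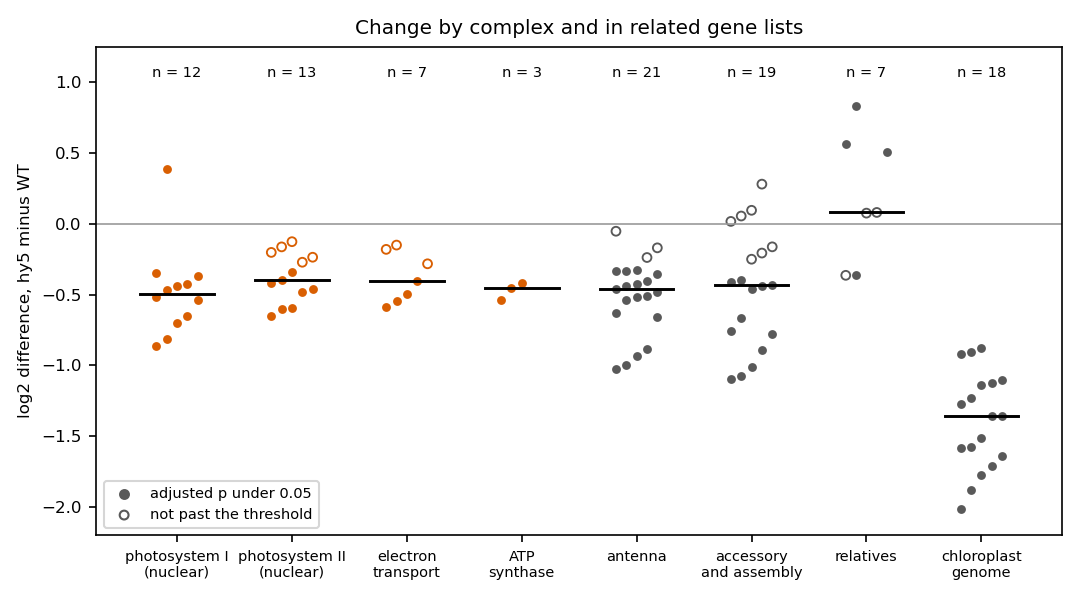
Log2 difference between *hy5* and WT of each gene with a tested probe, for the 35 genes by complex (orange) and for 4 related lists (gray), with a bar at each median. Filled points are past an adjusted p of 0.05. The chloroplast genome genes lie between -2.02 and -0.88. The relatives of the carriers and of the γ subunit are the one list with several genes above 0 past the threshold. Values are those of the 75th percentile scaling. Under quantile normalization the 10 brightest of the 35 genes lie between -0.30 and 0.093. In that setting 5 of the 21 antenna genes are past the threshold as lower, beside 27.6% of all genes.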

How the data were processed

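Total RNA of 3 *hy5* and 3 wild-type samples was labeled with Cy3 and read with Agilent Feature Extraction 10.7.3, per the submitters' processing notes. The authors deposited each array's spot intensity after background subtraction, not scaled between arrays, and a table of ratio values, which are intensities divided by the 75th percentile of the array. Processed signals were divided by the 75th percentile of the non-control spots of their array and put on a log2 scale, with repeated spots averaged and 30 outlier-flagged probes removed. A probe entered the test if the scanner software flagged it as well above background on all 3 *hy5* or all 3 wild-type arrays, and the brightest tested probe stood for its gene. The two-sided test was that of limma 3.58.1 (R 4.3.3), with Benjamini-Hochberg adjustment over 21590 genes. The scripts were tested on simulated data. The number of arrays limits the precision.

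The members and lists were chosen with earlier results of these data known. By rule, values per array are given for members past 2-fold (none), the 5 lowest and 5 highest log2 differences, pairs more than 0.5 apart and *HY5*, and were added for further members after their values were seen. Of other lists, genes past 2-fold and both extremes are named, and *PGR5*, *FDC1*, *FD3*, *RFNR2*, *ATPC2*, *TIP2;3* and *SESA1* were named after their values were seen. Symbols follow common use, and all 35 loci are in the TAIR10.1 gene table. Its coordinates were not used, because the genome build behind the array's annotation is not given in the sources used here. Slides and scans each held 1 genotype, so they could not be fitted as a block. No arrays held identical values.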

Additional observations from a re-analysis of the deposited data

How the results depend on the processing

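Values were recomputed with 4 other scalings or background corrections, with looser and stricter filters, with other probes per gene, from the deposited table, with a trended robust prior, with the methods' t-test, with the replicate number as a block, and without each array. Of 665 values of the 35 genes under them, 602 kept their direction and side of the threshold, 49 no longer passed it and 8 newly passed it. The other 6 changed sign, each under quantile normalization, and were *PSAF* (0.048), *PSBO1* (0.017), *PSBP-1* (0.052), *PSBW* (0.093), *PETC* (0.029) and *PETE2* (0.021), none of them past the threshold there. That setting gave 16 lower and 0 higher genes and a median of -0.22, beside 27.6% lower over all genes. The methods' t-test after adjustment gave 17 lower genes, beside 15.1% of all genes. The dimmest probe gave 17, with 1 at 2-fold, beside 23.5% of all genes lower. No gene was higher by the methods' t-test or without a filter (0 of 35). The cause was not tested. With each array left out in turn, 21 to 29 genes were lower, 0 to 1 higher and 0 past 2-fold, the median lay between -0.46 and -0.40, and 21 of the 26 genes that fell did so each time. Of those 26, 11 stayed lower in every setting run (*PSAD-1*, *PSAD-2*, *PSAH-2*, *PSAK*, *PSAL*, *PSAN*, *PSBTN*, *PSBX*, *PSBY*, *PETE1* and *ATPD*). *LHCB2.1* ranged over -0.15 to 0.070 when arrays were left out, and was at 0.0089 without wild-type replicate 3. The all-gene median was -0.20 with normexp and -0.18 without a filter, where 26 and 25 of the 35 genes were lower, beside 48.6% and 26.6% of all genes. Of 171 differences between paired genes, 20 moved by more than the spread between replicates.

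Deviations of same-numbered arrays from their group means correlated at -0.025, -0.087 and 0.085, and replicate numbers were not taken as pairs. With a replicate block, 25 genes were lower and 1 higher, and the median was -0.44. The slide or scan block could not be fitted. Each of the 35 genes was flagged above background on 6 arrays. The result of *PSBP-2*, whose probe had a mean intensity of 24.3, still depended on the background correction.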

Other observations

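Over the 35 genes, *hy5* replicate 2 was the highest of the 3 *hy5* arrays for 30 genes, and wild-type replicate 2 was the lowest of the 3 wild-type arrays for 22. The median of the genes relative to the wild-type mean was -0.48, -0.35 and -0.45 on the *hy5* arrays and 0.067, -0.058 and 0.026 on the wild-type arrays, so the spread within a genotype was smaller than the distance between genotypes. Without *hy5* replicate 2, *PSBO2*, *PSB28* and *FD1* also passed the threshold, at log2 differences of -0.32, -0.41 and -0.37.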
